A study of Homo sapiens with 27 samples.

Results

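The SR protein and hnRNP genes, which encode the main families of RNA-binding splicing regulators, were examined in 3 human prostate cancer cell lines in which CPSF1 was depleted by RNA interference. Members were chosen by name alone: every gene row whose symbol begins with SRSF or HNRNP followed by its family number or letter, plus TRA2A and TRA2B. This gave 36 of the 20268 gene rows, made up of 23 HNRNP genes, 11 SRSF genes and 2 TRA2 genes. The HNRNP genes include the readthrough gene HNRNPUL2-BSCL2 and the C-like gene HNRNPCL1. In each line a gene was tested if it held more than 2 CPM (counts scaled to a common library total) in every library, which 33 members did in LNCaP and LNCaP95 and 34 in 22Rv1. HNRNPUL2-BSCL2 and HNRNPCL1 passed in no line, and SRSF12 passed in 22Rv1 only.

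SR proteins carry RNA recognition motifs and a tail rich in arginine and serine. They bind exonic enhancers and recruit the spliceosome, and their tail is phosphorylated by the SRPK and CLK kinases. The hnRNPs coat nascent pre-mRNA and often oppose SR proteins at the same exons, and in prostate cancer members of both families are known for regulating the splicing of the androgen receptor transcript. CPSF1 is the large subunit of the cleavage and polyadenylation specificity factor, the complex that recognises the AAUAAA hexamer near the 3′ end of pre-mRNAs, so the comparison asks how the mRNAs of splicing regulators respond when a 3′ end processing factor is reduced.

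The lines were LNCaP, an androgen-responsive line, LNCaP95, its derivative that grows without androgen, and 22Rv1, a castration-resistant line from a relapsed xenograft. By the study's methods LNCaP and 22Rv1 were kept in RPMI with fetal bovine serum, and LNCaP95 in phenol red-free RPMI, also with fetal bovine serum. In every line lentiviral pGIPZ constructs carried a non-silencing hairpin (CTRL sh) or a hairpin that targets CPSF1, either CPSF1 sh1 or CPSF1 sh2, and all groups, controls included, were transduced and selected with puromycin. There were 3 replicates of each of the 9 groups, 27 libraries in all. The number of cells seeded per well and the hours of growth were the same for every library. No uninfected cells were among the libraries used here. Strand-specific poly(A)-selected RNA sequencing gave 8515624 to 15904518 counts per library with a median of 11058723, and the 36 members took 0.81 to 1.28% of them. As these are bulk samples, fewer cells of a type and less RNA per cell cannot be told apart. The labels number the replicates BR1 to BR3 and the study's methods call them biological. Neither says how far their cultures were separate, so that p-values set differences against the spread between these libraries only. The 6 knockdown libraries of a line come from CPSF1 sh1 and CPSF1 sh2 alone, and the pooled test counts them as 6 replicates.

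The annotated 3′ ends are shown first because CPSF1 acts there. The hexamer AATAAA, the DNA form of AAUAAA, lay within the last 50 bases of the annotated gene for 25 of the 36 members (69.4%) and for 56.6% of 20250 genes. The variant ATTAAA alone was found for 5 members (13.9%, against 12.9% of all genes), and neither hexamer was found for 6 members (16.7%, against 30.5%). Only the strand of the gene was searched, and both hexamers were sought as exact letters. Windows of 30 bases around the last hexamer are printed for 11 members on which the results turn, from the GRCh37 genome, 5′ to 3′ on the strand of the gene, with the hexamer in capitals.
HNRNPM (chr19:8553965-8553994, + strand): tatgactttgatAATAAAtaccggttcctg
HNRNPAB (chr5:177638131-177638160, + strand): ccaagcttttgaAATAAAatttaaaaaccc
HNRNPA3 (chr2:178088653-178088682, + strand): ttaccagtaagtAATAAAacaacaggaaac
HNRNPDL (chr4:83343728-83343757, - strand): aagatgaggactATTAAAatgagatgtctg
HNRNPUL2 (chr11:62480111-62480140, - strand): ttccagttttagAATAAAtaaccatttgga
HNRNPH1 (chr5:179041187-179041216, - strand): tgaaacttgtcaAATAAAtcctccttttaa
HNRNPH2 (chrX:100669079-100669108, + strand): tgaaacttgttaAATAAAtcttccttttaa
SRSF4 (chr1:29474264-29474293, - strand): ccattaaatttgAATAAAgactatttttgc
SRSF5 (chr14:70238691-70238720, + strand): tttgttattgatAATAAAatattataaaac
SRSF11 (chr1:70718698-70718727, + strand): aattgatttaaaAATAAAagtggtttttgt
TRA2A (chr7:23544405-23544434, - strand): aaagtagtctcaAATAAAagctaatttctt
In the GENCODE annotation lifted to GRCh37 each of these windows lay inside an exon and a UTR of at least 1 transcript of its gene, and inside coding sequence of 0 transcripts. The HNRNPH1 and HNRNPH2 windows, from paralogs on different chromosomes, shared 28 of 30 bases. A match describes the annotated end only, since the counts do not show which end a transcript used.

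The targeted gene was checked before the members. CPSF1 stood at 149.7 to 151.7 CPM (after TMM scaling over the libraries of that line, here and below unless stated) in the 3 LNCaP CTRL sh libraries, at 94.4 to 108 with sh1 and at 86.2 to 98.2 with sh2 (log2 fold change −0.65 ± 0.056 SE, adjusted p = 1.68e-07, edgeR quasi-likelihood test). In LNCaP95 it went from 97.0 to 127.5 CPM in CTRL sh to 57.1 to 68.2 with sh1 and 58.8 to 63.9 with sh2 (log2 −0.89 ± 0.079). In 22Rv1 the respective ranges were 182 to 188.7, 110.7 to 136.7 and 126.1 to 141.4 CPM (log2 −0.50 ± 0.062). All 6 knockdown libraries lay below all 3 controls in each line, and the remaining CPSF1 mRNA was therefore well above 0 in all of them. The luminal markers fixed as a check of the cell type were all expressed (7 of 7 tested in each line, summed level 2785 to 5432 CPM over all libraries), the basal markers were near or at 0 (summed 0 to 6.29 CPM) and among fibroblast markers only COL1A1 passed the expression filter (summed 11.5 to 72.8 CPM), with log2 changes of −0.71 in LNCaP, −0.40 in LNCaP95 and −0.06 in 22Rv1. Luminal markers moved with the knockdown as well, 2 higher and 3 lower in LNCaP with KLK3 at a log2 change of −1.62, 1 higher and 3 lower in LNCaP95 and 1 of each in 22Rv1, and their part in the results below was not tested.

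In the control libraries the members spanned a wide range of levels. For levels and baselines set across lines, CPM were TMM-scaled over all 27 libraries together, so that they differ slightly from the CPM scaled within a line. Per kilobase of annotated exon, HNRNPA2B1, whose protein sorts and packages RNA, was the most abundant in LNCaP at 234 ± 4.33 CPM per kb (SD, n = 3), followed by the poly(C)-binding HNRNPK at 223 ± 2.24 and HNRNPA1, a classical splicing repressor, at 221 ± 5.13. HNRNPK and HNRNPA1 are thus neighbours whose levels lay within their SDs of each other. In LNCaP95 the leading members were HNRNPK at 226 ± 5.0, HNRNPA2B1 at 220 ± 7.87 and SRSF9 at 168 ± 2.44 CPM per kb, the first and the second of these again within their SDs. In 22Rv1 HNRNPA2B1 stood alone at 381 ± 14.9 CPM per kb, ahead of HNRNPA1 at 230 ± 8.27 and HNRNPK at 217 ± 6.98. The leading 3 members together made up 26.7% of the summed per-kb level of the members in LNCaP, 27.5% in LNCaP95 and 25.9% in 22Rv1. At the other end, SRSF12, a small SR protein with a restricted expression pattern, had no count in any of the 9 LNCaP95 libraries, which allows up to 3 counts in each (counting error only).

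**Figure D1:**
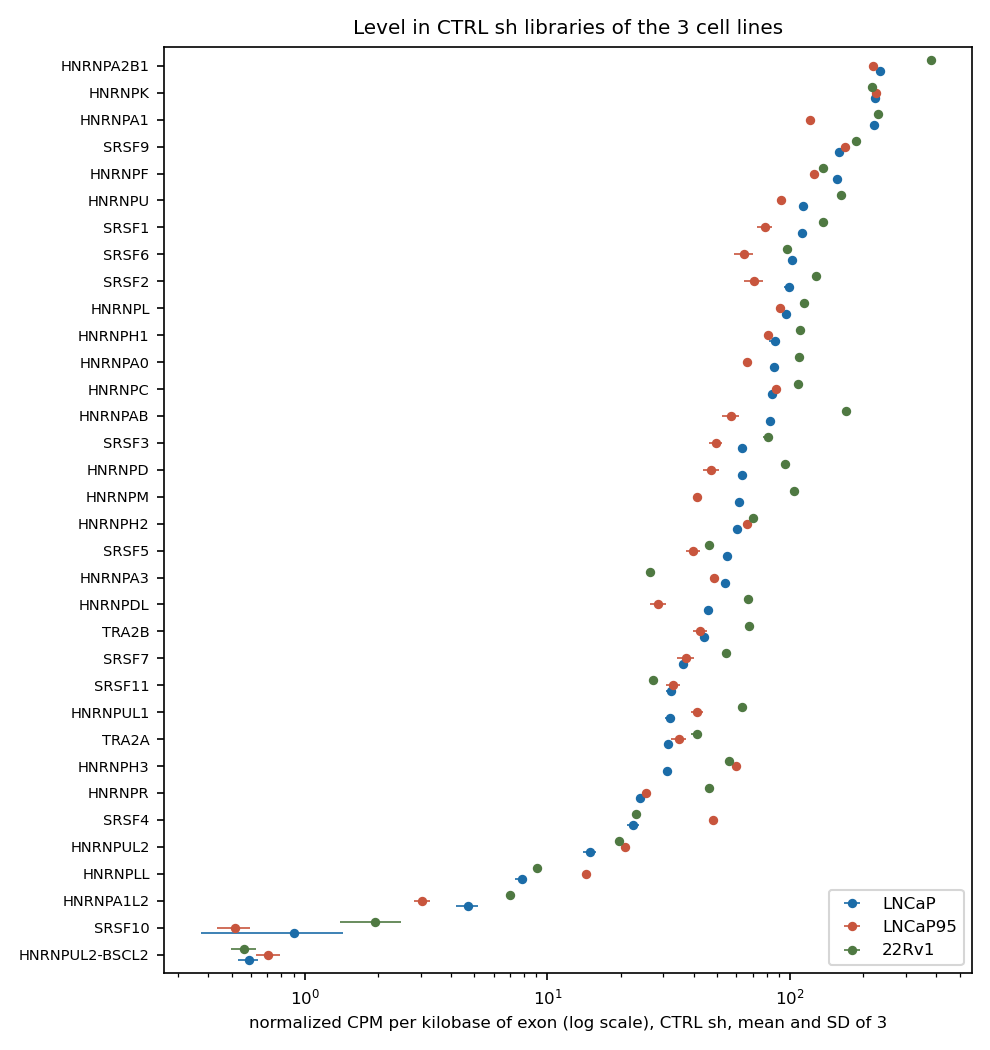
Level of each member in the control libraries, in CPM per kilobase of annotated exon on a log axis. Points give the mean and bars the SD of 3 CTRL sh libraries of each line. Members above 0.3 in every line are drawn, so that SRSF12 and HNRNPCL1 are left out. HNRNPA2B1 in 22Rv1, at 381, is the highest point.

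The level in CTRL sh libraries differed between lines for most members. With CTRL sh libraries of all lines fitted together, 26 of 33 members differed between LNCaP95 and LNCaP, 7 higher and 19 lower in LNCaP95, where 80.5% of all tested genes differed (40.1% higher, 40.4% lower). Between 22Rv1 and LNCaP 29 of 33 differed (25 higher, 4 lower in 22Rv1, with 82.7% of all genes called, 40% higher and 42.6% lower), and between 22Rv1 and LNCaP95 30 of 33 (25 higher, 5 lower, with 84.5% of all genes called, 42.1% higher and 42.5% lower). By mean level 22Rv1 was the highest line for 23 of the 33 members, LNCaP95 for 6 and LNCaP for 4. LNCaP95 was the lowest line for 19, LNCaP for 11 and 22Rv1 for 3. These orders of means were not counted over all genes. For some members, among them HNRNPK, SRSF10 and SRSF11, the controls of the highest line overlapped those of the next.

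SRSF4, HNRNPA3 and HNRNPH3 had another order of lines than the most common one. SRSF4, an SR protein with a long arginine-serine tail, was at 157, 151 and 157 CPM in the LNCaP95 controls against 68.2, 73.4 and 76.1 in LNCaP and 73.7, 74.4 and 74.1 in 22Rv1 (LNCaP95 minus LNCaP log2 1.08 ± 0.046, edgeR adjusted p = 4.21e-16). LNCaP95 thus stood apart from both other lines. HNRNPA3, an A/B-type hnRNP, went the other way for 22Rv1, with 156, 161 and 164 CPM against 330.3, 312 and 328 in LNCaP and 283, 292 and 300.0 in LNCaP95. Of the members highest in 22Rv1 and lowest in LNCaP95, HNRNPM, which binds GU-rich RNA, stood at 442, 444 and 444 CPM in 22Rv1, at 260.3, 261 and 264 in LNCaP and at 169, 183 and 177 in LNCaP95. HNRNPAB had the same order, with 307, 329 and 320.0 CPM in 22Rv1, 156, 155 and 151 in LNCaP and 97.2, 109.5 and 114 in LNCaP95. None of these 4 genes had overlapping control libraries between the line named as extreme and either of the others. HNRNPH3, which binds G-rich RNA, was at 314, 326 and 325 CPM in LNCaP95, 295, 303 and 307 in 22Rv1 and 165, 169 and 166 in LNCaP, so that LNCaP was the low line. HNRNPA1, lowest in LNCaP95 as well, was at 558, 575 and 578 CPM in LNCaP95, 1064, 1016 and 1047 in LNCaP and 1055, 1070 and 1128 in 22Rv1. The splicing repressor SRSF10 had log2 differences of 1.08 between 22Rv1 and LNCaP and 1.95 between 22Rv1 and LNCaP95, with the wide spread among replicates described below.

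After CPSF1 depletion most members passed the test in LNCaP and LNCaP95 and few did in 22Rv1. In LNCaP cells 14 of 33 tested members rose and 6 fell when the 6 knockdown libraries were set against the 3 controls, a share of 60.6% where 62.1% of all tested genes were called. In LNCaP95 17 rose and 7 fell, 72.7% of 33 against 66.9% of all tested genes. In 22Rv1 3 rose and 1 fell, 11.8% of 34 against 26.9% of all tested genes. The shares of members called were thus near the background in LNCaP and LNCaP95. By direction, LNCaP had 31.1% of all genes higher and 31% lower, LNCaP95 33.2% and 33.7%, and 22Rv1 12.7% and 14.3%. The median log2 change over tested members was 0.14 in LNCaP95, 0.10 in LNCaP and 0.04 in 22Rv1, beside a median over all genes of 0.00 in each line. With libraries scaled by their totals alone, the log2 changes in LNCaP95 moved up by a median of 0.087 over all genes. The LNCaP95 members then split into 22 higher and 4 lower, so that small falls in that line depend on the scaling. Without the first LNCaP95 control replicate 10 members rose there, and without the second or the third 22Rv1 control replicate 0 members fell in 22Rv1.

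Most changes were small. No member in LNCaP reached 1.5-fold, and in LNCaP95 HNRNPM, HNRNPAB, HNRNPA3 and SRSF10 did. The SRSF10 value is uncertain, with 1 knockdown library at 16.7 CPM and the others at 7.64 to 10.8. In 22Rv1 SRSF12 reached it, at a low level. Separation of the groups, counted as all 6 knockdown libraries above or below all 3 controls, was seen for 12 members above and 5 below in LNCaP (27.9% and 27.7% of all genes), for 13 and 6 in LNCaP95 (29.8% and 30.3%) and for 5 and 2 in 22Rv1 (13% and 15.2%). Only HNRNPA3 and HNRNPDL rose in all 3 lines, 2 of 33 members against 3.85% of all genes tested in every line, and no member fell in all 3, against 4.9% of all genes. HNRNPA0, HNRNPA2B1, HNRNPK and SRSF9 passed the test in no line, 4 of 33 members against 11.5% of all genes.

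**Figure D2:**
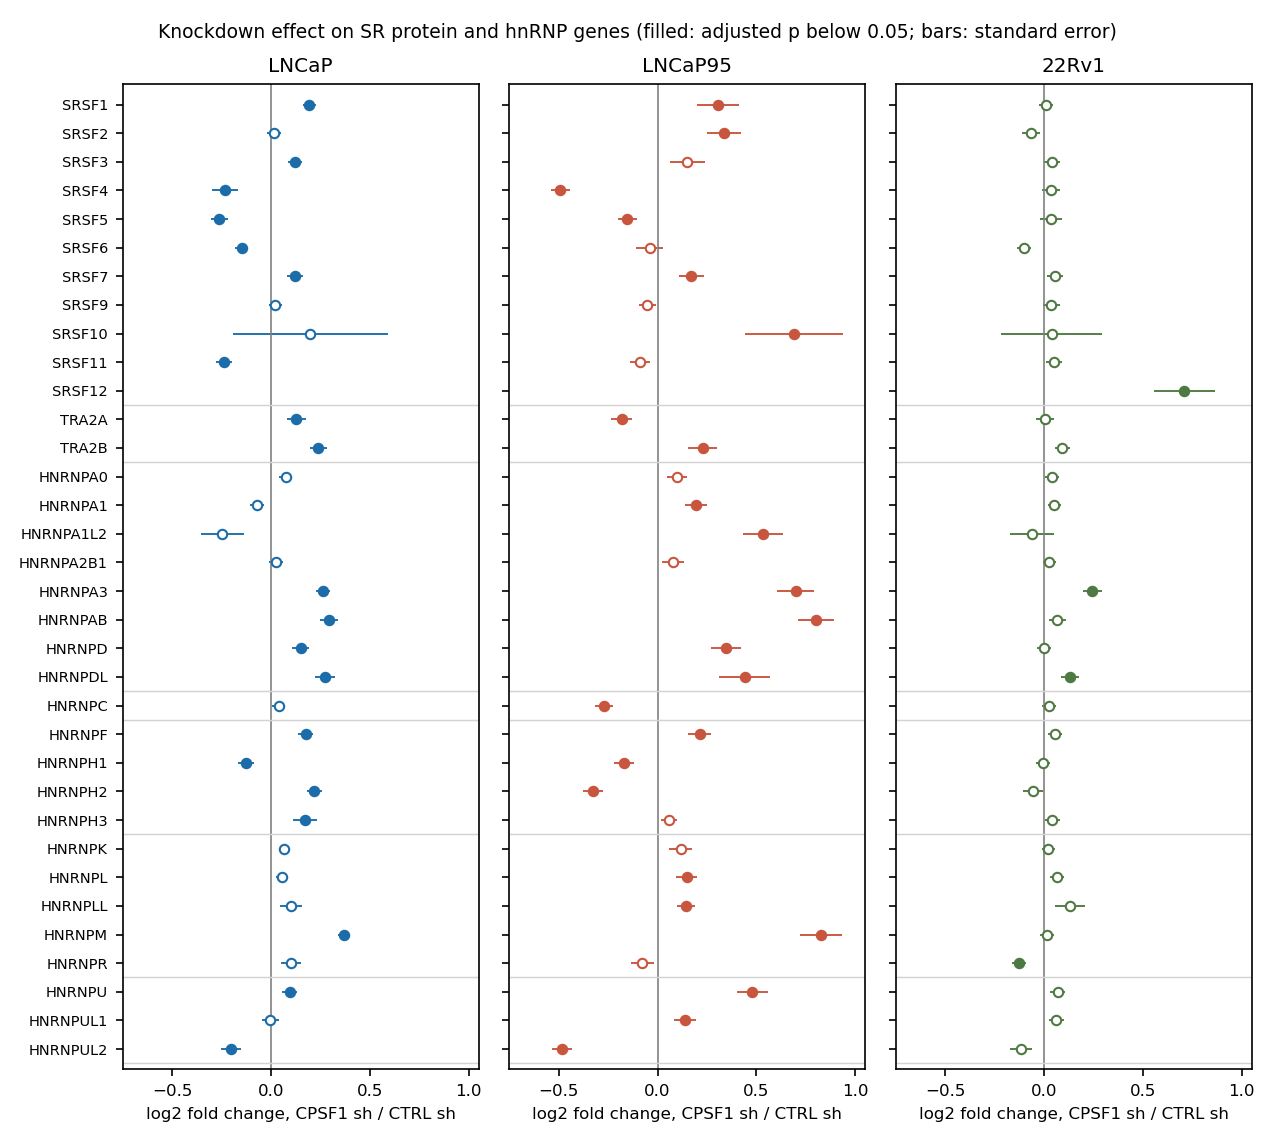
Log2 change of each tested member with CPSF1 knockdown (6 libraries of both hairpins) against CTRL sh (3 libraries) in LNCaP, LNCaP95 and 22Rv1. Filled points had an adjusted p under 0.05 in edgeR and bars are standard errors. HNRNPM reaches 0.83 in LNCaP95 and 0.37 in LNCaP and lies at 0.02 in 22Rv1.

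The A/B-type and D-type hnRNPs, which bind UAG-containing and AU-rich RNA and act as splicing repressors and mRNA stability factors, were counted first. Of 8 tested members 4 rose in LNCaP (31.1% of all genes rose), 6 in LNCaP95 (33.2%) and 2 in 22Rv1 (12.7%), and none fell, which is a count over few genes and no test of the group. HNRNPAB, a regulator of RNA transport and stability, was at 152, 151 and 147 CPM in the LNCaP controls, 173, 172 and 184 with sh1 and 198, 190.1 and 185 with sh2 (log2 0.29 ± 0.045, adjusted p = 5.79e-05). In LNCaP95 it was at 95.8, 108 and 113 CPM in the controls, 167, 161 and 169 with sh1 and 202, 207 and 199.7 with sh2, a rise of 1.74-fold (log2 0.80 ± 0.091, adjusted p = 8.82e-06). The groups did not overlap in either line. In 22Rv1 the HNRNPAB controls spanned 299 to 321 CPM and the knockdown libraries 312 to 347, and the groups overlapped (log2 0.07 ± 0.042, edgeR adjusted p = 0.255).

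HNRNPA3 rose in every line. Its LNCaP controls of 322, 304 and 319.9 CPM stood below 372, 370.0 and 365 with sh1 and 389, 381 and 394 with sh2 (log2 0.26 ± 0.035, adjusted p = 1.38e-05). The LNCaP95 controls of 279, 289 and 298 CPM stood below 399.6, 405 and 447 with sh1 and 536, 495 and 528 with sh2 (1.62-fold, log2 0.70 ± 0.094, adjusted p = 3.18e-05). The 22Rv1 controls of 152, 157 and 159.8 CPM stood below 182, 181 and 172 with sh1 and 184, 195 and 196 with sh2 (log2 0.24 ± 0.049, adjusted p = 0.00235). In each line all 6 knockdown libraries were above all 3 controls. HNRNPA3 shares its sequence with 16 annotated pseudogenes, and reads that could not be placed between them were not examined here.

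HNRNPDL, a D-like hnRNP that controls its own splicing, also rose in every line, by log2 0.27 ± 0.051 in LNCaP, 0.44 ± 0.131 in LNCaP95 and 0.13 ± 0.045 in 22Rv1. The LNCaP libraries held 194, 207 and 209 CPM in the controls, 226, 234 and 234 with sh1 and 265, 258 and 255 with sh2. The LNCaP95 libraries held 118, 129 and 137 CPM in the controls, 146, 141 and 149 with sh1 and 208, 197 and 203 with sh2. In LNCaP95 the sh1 libraries lay just above the controls and the sh2 libraries far above them. In 22Rv1 the control and knockdown ranges overlapped (282 to 305 and 302 to 343 CPM), and the adjusted p of 0.0438 was lost under 10 of the other settings tried, as it was in LNCaP95 when the first control replicate was left out (adjusted p = 0.058). HNRNPD, its neighbour on chromosome 4 and the AU-rich element binding protein AUF1, rose in LNCaP and LNCaP95 (log2 0.15 and 0.34) and in 22Rv1 stood at 353 ± 6.49 CPM in the controls and 354 ± 7.67 in the knockdown libraries.

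HNRNPA1 rose in LNCaP95 only by the test (log2 0.19), from 550.4 to 574 CPM in the controls to 595 to 688 with knockdown, and its LNCaP values of 991 to 1037 and 934 to 1010 CPM did not pass. HNRNPA1 has 74 annotated pseudogenes. The HNRNPA1-like gene HNRNPA1L2 was low, at 6.51, 7.19 and 7.65 CPM in the LNCaP95 controls and 9.67 to 11.3 with knockdown (log2 0.53 ± 0.10, adjusted p = 0.000441), and in LNCaP it went from 9.97 to 12.1 CPM to 8.15 to 10.2, short of the threshold. Its value is uncertain because reads may be shared with HNRNPA1. HNRNPA2B1 and HNRNPA0, the intronless member of the group, passed in no line, with HNRNPA2B1 log2 changes of 0.03, 0.08 and 0.03 in LNCaP, LNCaP95 and 22Rv1.

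HNRNPC, which binds uridine tracts and masks cryptic exons, was the only C-type hnRNP that could be tested. It fell in LNCaP95, from 546, 587 and 579 CPM in the controls to 439.6, 469.8 and 468 with sh1 and 492, 481 and 487 with sh2 (log2 −0.27 ± 0.045, adjusted p = 0.000181), with no overlap between the groups. In LNCaP the log2 change was 0.04 and in 22Rv1 it was 0.02, and neither passed.

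The F/H hnRNPs, which bind G-rich tracts and are known both for splicing and for 3′ end processing, held calls in both directions. Among the 4 of them LNCaP had 3 risers and 1 faller, LNCaP95 had 1 riser and 2 fallers, and none passed in 22Rv1. Since LNCaP had 31.1% of all genes higher and 31% lower, and LNCaP95 33.2% and 33.7%, calls in both directions among 4 genes do not set them apart. HNRNPF rose in LNCaP and LNCaP95 by log2 0.18 and 0.21. HNRNPH1 fell in both, by 0.13 and 0.17 on the log2 scale. Its LNCaP groups overlapped, with 440.5 to 488 CPM in the controls and 398 to 442 with knockdown. HNRNPH2, the X-linked paralog, went in opposite directions in LNCaP and LNCaP95. It was at 128, 129 and 134 CPM in the LNCaP controls and 146 to 158 with knockdown (log2 0.22 ± 0.037, adjusted p = 0.000124), and at 145, 148 and 147 CPM in the LNCaP95 controls and 111 to 127 with knockdown (log2 −0.33 ± 0.050, adjusted p = 8.83e-05). The groups were apart in both lines. The HNRNPH2 exons share 16.3% of their bases with a readthrough gene that starts at RPL36A, which held 0 to 2 counts in any library. HNRNPH3 rose in LNCaP only by the test (log2 0.17), and there the sh1 libraries (161, 171 and 179 CPM) overlapped the controls (161, 165 and 162) while the sh2 libraries (198, 189 and 201) did not.

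Among HNRNPK, HNRNPL, HNRNPLL, HNRNPM and HNRNPR, 1 of 5 rose in LNCaP, 3 in LNCaP95 and none in 22Rv1, where HNRNPR fell. Of all genes 31.1% rose in LNCaP, 33.2% in LNCaP95 and 12.7% in 22Rv1, where 14.3% fell. Counts over 5 genes are no test of the group. HNRNPM had the largest log2 change of the members in LNCaP and LNCaP95. Its LNCaP controls were at 254, 255 and 258 CPM, the sh1 libraries at 327, 332 and 318 and the sh2 libraries at 338, 327 and 335 (log2 0.37 ± 0.031, adjusted p = 1.61e-07). Its LNCaP95 controls were at 167, 181 and 175 CPM, the sh1 libraries at 274, 257 and 275 and the sh2 libraries at 350.1, 348 and 354 (1.77-fold, log2 0.83 ± 0.107, adjusted p = 2.44e-05). Knockdown libraries were above controls throughout, and in LNCaP95 sh2 was above sh1. In 22Rv1 the controls of 431, 434 and 433 CPM fell inside the knockdown range of 426 to 453. HNRNPL, which binds CA repeats, and its paralog HNRNPLL, known from the splicing of CD45 in lymphocytes, rose in LNCaP95 by log2 0.15 and 0.14.

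HNRNPR, known for axonal RNA transport, fell in 22Rv1 from 383, 386 and 404 CPM in the controls to 354, 357 and 356 with sh1 and 369.5, 353 and 359 with sh2 (log2 −0.13 ± 0.036, adjusted p = 0.0179). All 6 knockdown libraries were below all 3 controls. The HNRNPR call was lost without the second control replicate (adjusted p = 0.0592), without the third (adjusted p = 0.111) and with sh1 alone (adjusted p = 0.059). In LNCaP and LNCaP95 its log2 changes of 0.10 and −0.08 did not pass.

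HNRNPU, the scaffold attachment factor that binds both RNA and chromatin, and its paralog HNRNPUL2 went in opposite directions in LNCaP and LNCaP95. HNRNPU was at 554, 590.2 and 594 CPM in the LNCaP95 controls, 718, 716 and 767 with sh1 and 890.1, 872 and 882 with sh2 (log2 0.48 ± 0.078, adjusted p = 0.000154). The 3 groups were apart from each other. HNRNPUL2 was at 108, 107 and 102 CPM in the LNCaP95 controls, 79.3, 79.9 and 77.8 with sh1 and 73.2, 72.0 and 72.2 with sh2 (log2 −0.48 ± 0.050, adjusted p = 4.01e-06), and fell in LNCaP by 0.20 on the log2 scale. Of the HNRNPUL2 exon bases 46.1% are shared with the readthrough gene HNRNPUL2-BSCL2, a member by name that held 13 to 40 counts in any library and did not pass the filter. HNRNPUL1 rose in LNCaP95 alone by the test (log2 0.14). In 22Rv1 none of the 3 passed.

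**Figure D3:**
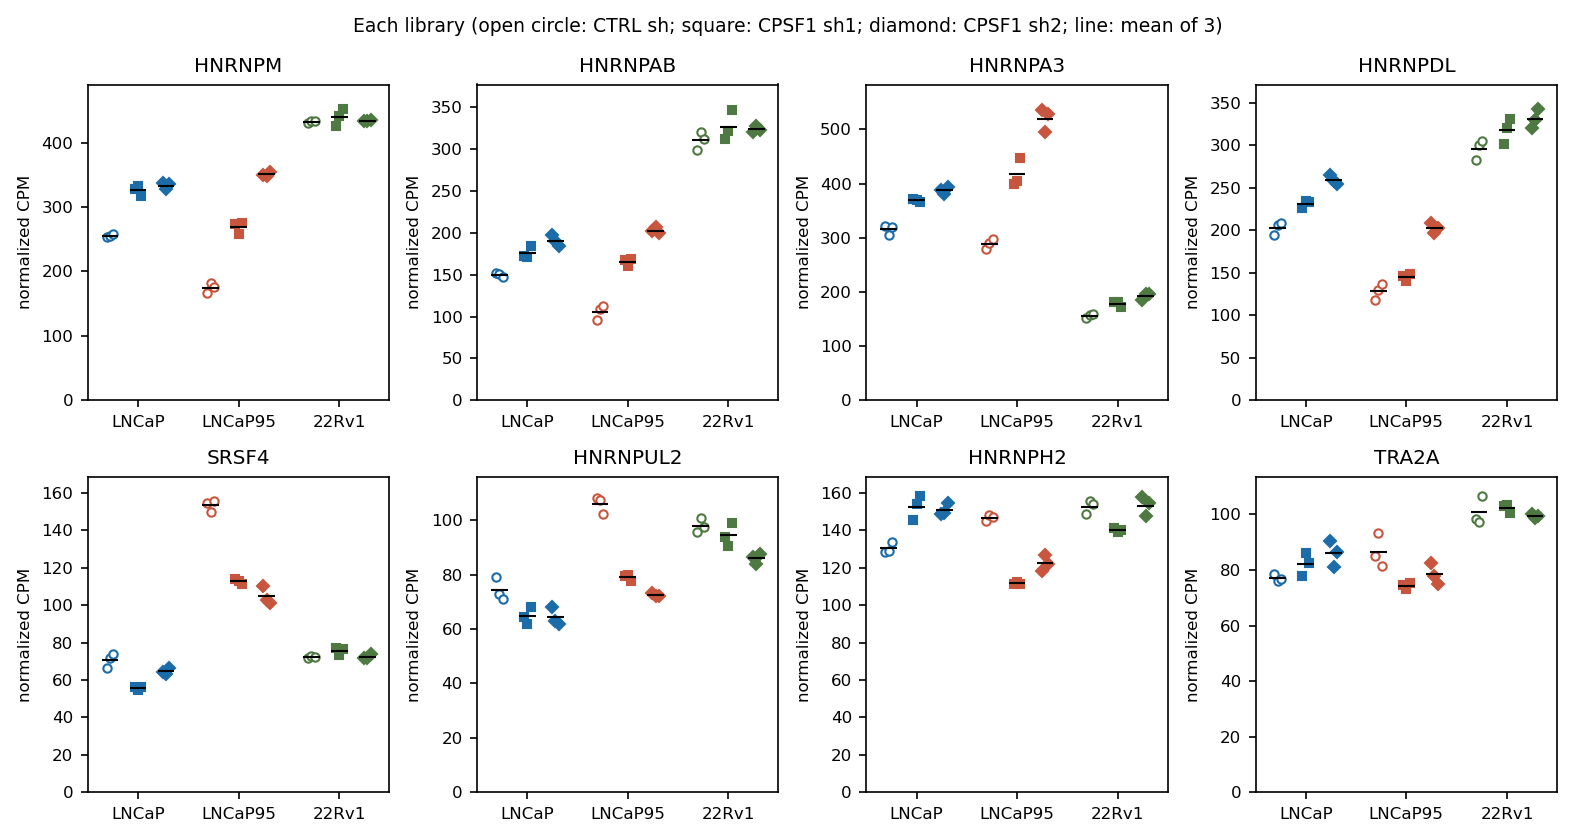
Normalized CPM of HNRNPM, HNRNPAB, HNRNPA3, HNRNPDL, SRSF4, HNRNPUL2, HNRNPH2 and TRA2A in each library, by line and hairpin. Each point is 1 library. In LNCaP95 the HNRNPM points go from 167 to 181 in CTRL sh to 348 to 354 with CPSF1 sh2, while the SRSF4 and HNRNPUL2 points go down.

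Among the SR proteins, 3 of 10 rose and 4 fell in LNCaP (31.1% and 31% of all genes), 4 of 10 rose and 2 fell in LNCaP95 (33.2% and 33.7%), and 1 of 11 rose in 22Rv1 (12.7%). These shares lie near those of all genes. SRSF1, the founding SR protein and a known oncogene, rose in LNCaP (log2 0.19) and in LNCaP95 (log2 0.30 ± 0.106, adjusted p = 0.0225). Its LNCaP95 libraries stood at 231, 262 and 264 CPM in the controls, 269, 264 and 280.2 with sh1 and 362, 336 and 359 with sh2. The lowest sh1 library, at 263.7 CPM, was barely above the highest control at 263.6, and sh2 lay well above both groups. Against the controls sh1 did not pass (edgeR adjusted p = 0.0634). SRSF7, an SR protein with a zinc knuckle, rose in both lines (log2 0.12 and 0.17). SRSF3, a small SR protein, rose in LNCaP alone by the test (log2 0.12), and SRSF2, which also supports transcription elongation, in LNCaP95 alone by the test (log2 0.33).

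SRSF4 fell in LNCaP and LNCaP95. The LNCaP controls of 66.5, 71.6 and 74.1 CPM stood above 56.2, 54.6 and 56.1 with sh1 and 64.2, 63.2 and 66.2 with sh2 (log2 −0.23 ± 0.065, adjusted p = 0.00611). The LNCaP95 controls of 155, 149.5 and 155 CPM stood above 114, 113 and 111 with sh1 and 110.2, 103 and 101 with sh2 (log2 −0.49 ± 0.048, adjusted p = 2.6e-06). The groups were apart in both lines, in LNCaP by a narrow margin to sh2. In 22Rv1 SRSF4 was at 72.2 ± 0.41 CPM in the controls and 74.1 ± 2.28 with knockdown (SD, n = 3 and 6).

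SRSF5 fell in both lines too. It was at 232, 231 and 239 CPM in the LNCaP controls, 194, 202 and 208 with sh1 and 196, 179 and 194 with sh2 (log2 −0.26 ± 0.042, adjusted p = 8.11e-05), and its change in LNCaP95 was −0.15. SRSF11, whose protein contacts U1 snRNP, fell in LNCaP from 254, 266 and 280.0 CPM to 226, 217 and 234 with sh1 and 229, 215 and 239 with sh2 (log2 −0.24 ± 0.041, adjusted p = 0.000167). SRSF6 fell in LNCaP by 0.15 on the log2 scale. In LNCaP95 SRSF11 and SRSF6 had log2 changes of −0.09 and −0.04 that did not pass. None of these 3 genes passed in 22Rv1, where SRSF6 nevertheless had all 6 knockdown libraries below the controls (log2 −0.10, adjusted p = 0.0562).

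SRSF10 and SRSF12 were the low SR protein genes. SRSF10, a splicing repressor when dephosphorylated, ranged widely among replicates, from 6.58 to 18.2 CPM in the LNCaP controls and from 15.8 to 27.3 in the 22Rv1 controls. Its row joins annotated exons on chromosome 1 with a copy on an unlocalised scaffold, so its value is uncertain. In LNCaP95 it rose from 5.21, 6.47 and 7.16 CPM to 7.64, 8.20 and 16.7 with sh1 and 9.20, 10.8 and 7.82 with sh2 (log2 0.69 ± 0.248, adjusted p = 0.0261). SRSF12 passed the filter only in 22Rv1 and rose there from 2.97, 3.58 and 3.81 CPM to 5.62, 4.56 and 5.75 with sh1 and 4.97, 6.79 and 6.01 with sh2 (log2 0.71 ± 0.154, adjusted p = 0.00396). All 6 knockdown libraries were above the controls, at a low level.

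TRA2A and TRA2B encode the Transformer-2 proteins, SR-like activators that bind GAA-rich exonic enhancers. TRA2B rose in LNCaP (log2 0.24 ± 0.041, adjusted p = 0.000131) and in LNCaP95 (log2 0.23 ± 0.074, adjusted p = 0.016). TRA2A was at 78.5, 75.9 and 76.7 CPM in the LNCaP controls and at 77.9 to 90.4 with knockdown (log2 0.13 ± 0.048, adjusted p = 0.0298). In LNCaP95 it was at 85.0, 93.2 and 81.6 CPM in the controls and at 73.0 to 82.6 with knockdown (log2 −0.18 ± 0.055, adjusted p = 0.0108). The groups overlapped in both lines, and these calls were lost under 9 and 2 of the other settings. Across the 3 lines HNRNPH2 and TRA2A were the only members called in opposite directions, 2 of 33, where 14.4% of all genes tested in every line were.

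Whether the response differed between lines was tested as an interaction in the fit over all 27 libraries. The change in LNCaP95 differed from that in LNCaP for 20 of 33 members, 14 more positive and 6 more negative, where 59.7% of all genes differed (31.2% and 28.5%). HNRNPA1L2 had the largest positive difference (log2 0.80 ± 0.142, adjusted p = 1.67e-05), followed by HNRNPAB (0.53 ± 0.059, adjusted p = 5.13e-09) and HNRNPM (0.47), and HNRNPH2 had the most negative (−0.53 ± 0.047, adjusted p = 4.42e-11). TRA2A differed by −0.29 ± 0.063 (adjusted p = 0.000215). These are the members whose groups moved further, or the other way, in LNCaP95. Against LNCaP, the change in 22Rv1 differed for 14 of 33 members (5 more positive, 9 more negative, with 50.3% of all genes called, 25.3% and 25%), with HNRNPM at −0.34, SRSF5 at 0.31 and SRSF11 at 0.30. Against LNCaP95, it differed for 20 of 33 (7 more positive, 13 more negative, with 61.6% of all genes called, 30.8% and 30.9%), with HNRNPM at −0.81 ± 0.042 (adjusted p = 2.71e-16), HNRNPAB at −0.74 ± 0.057 and HNRNPA1L2 at −0.60 ± 0.134. CPSF1 itself had its smallest log2 change in 22Rv1 and its largest in LNCaP95, as given above, and the part of the knockdown depth in these differences was not tested.

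The hairpins were compared directly in each line. In LNCaP95 23 of 33 members differed between sh2 and sh1, 22 higher and 1 lower with sh2, where 16.5% of all genes were higher, 17.7% lower and 34.1% called in either direction. HNRNPDL was higher with sh2 by log2 0.48 ± 0.049 (adjusted p = 3.54e-07), HNRNPM by 0.39 ± 0.041 (adjusted p = 6.61e-07) and SRSF1 by 0.38 ± 0.048 (adjusted p = 6.57e-06), and HNRNPUL2 was lower by 0.12 on the log2 scale. The CPSF1 mRNA had a log2 difference between the same hairpin groups of 0.00 ± 0.084 (adjusted p = 0.998). In LNCaP 4 of 33 members differed, all higher with sh2, where 6.53% of all genes were higher, 8.24% lower and 14.8% called. That count was 8 with library size alone and 9 with the replicate number as a block. SRSF4 was higher by 0.22 ± 0.052, HNRNPH3 by 0.20 ± 0.040, HNRNPDL by 0.16 ± 0.036 and HNRNPD by 0.11. There CPSF1 was at −0.14 ± 0.053 (adjusted p = 0.0773). In 22Rv1 only HNRNPLL differed (0.22 ± 0.063, adjusted p = 0.038), where 11.3% of all genes did (5.47% higher, 5.85% lower), with HNRNPLL at 55.2, 49.7 and 51.5 CPM with sh1 and 61.4, 64.8 and 56.1 with sh2. That call was lost under 7 of the other settings, among them leaving out any 22Rv1 control replicate, the first or second sh2 replicate or the second sh1 replicate (0 members called).

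Each hairpin was also set against the controls it shared with the other. In LNCaP95 22 members passed with sh1 (13 higher, 9 lower), where 66.4% of all genes passed (33.1% higher, 33.3% lower), and 29 with sh2 (22 higher, 7 lower), where 73.4% did (36.5% and 36.9%). In LNCaP 17 passed with sh1 (10 higher, 7 lower), where 62.6% of all genes passed (31.2% and 31.3%), and 23 with sh2 (17 higher, 6 lower), where 64.6% did (32.1% and 32.5%). In 22Rv1 3 passed with sh1 (2 higher, 1 lower), where 19.9% of all genes passed (8.79% and 11.1%), and 8 with sh2 (5 higher, 3 lower), where 40% did (19.1% and 20.9%). Sh2 passed more members in every line, as it did for all genes. With sh1 and sh2 the member shares were 66.7% and 87.9% in LNCaP95. They were 51.5% and 69.7% in LNCaP and 8.8% and 23.5% in 22Rv1. Counted library by library, controls below sh1 below sh2 with no overlap was the order of 10 members in LNCaP95 (14.4% of all genes). They were HNRNPA1, HNRNPA3, HNRNPAB, HNRNPD, HNRNPDL, HNRNPF, HNRNPL, HNRNPM, HNRNPU and SRSF1. For SRSF1 the sh1 libraries were barely above the controls. The reverse order held in LNCaP95 for SRSF4 and HNRNPUL2 (15.3% of all genes). In LNCaP 8 members had the rising order and none the reverse (4.49% and 4.88% of all genes), and in 22Rv1 HNRNPA3 had the rising order and SRSF6 the reverse (4.48% and 5.02%).

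**Figure D4:**
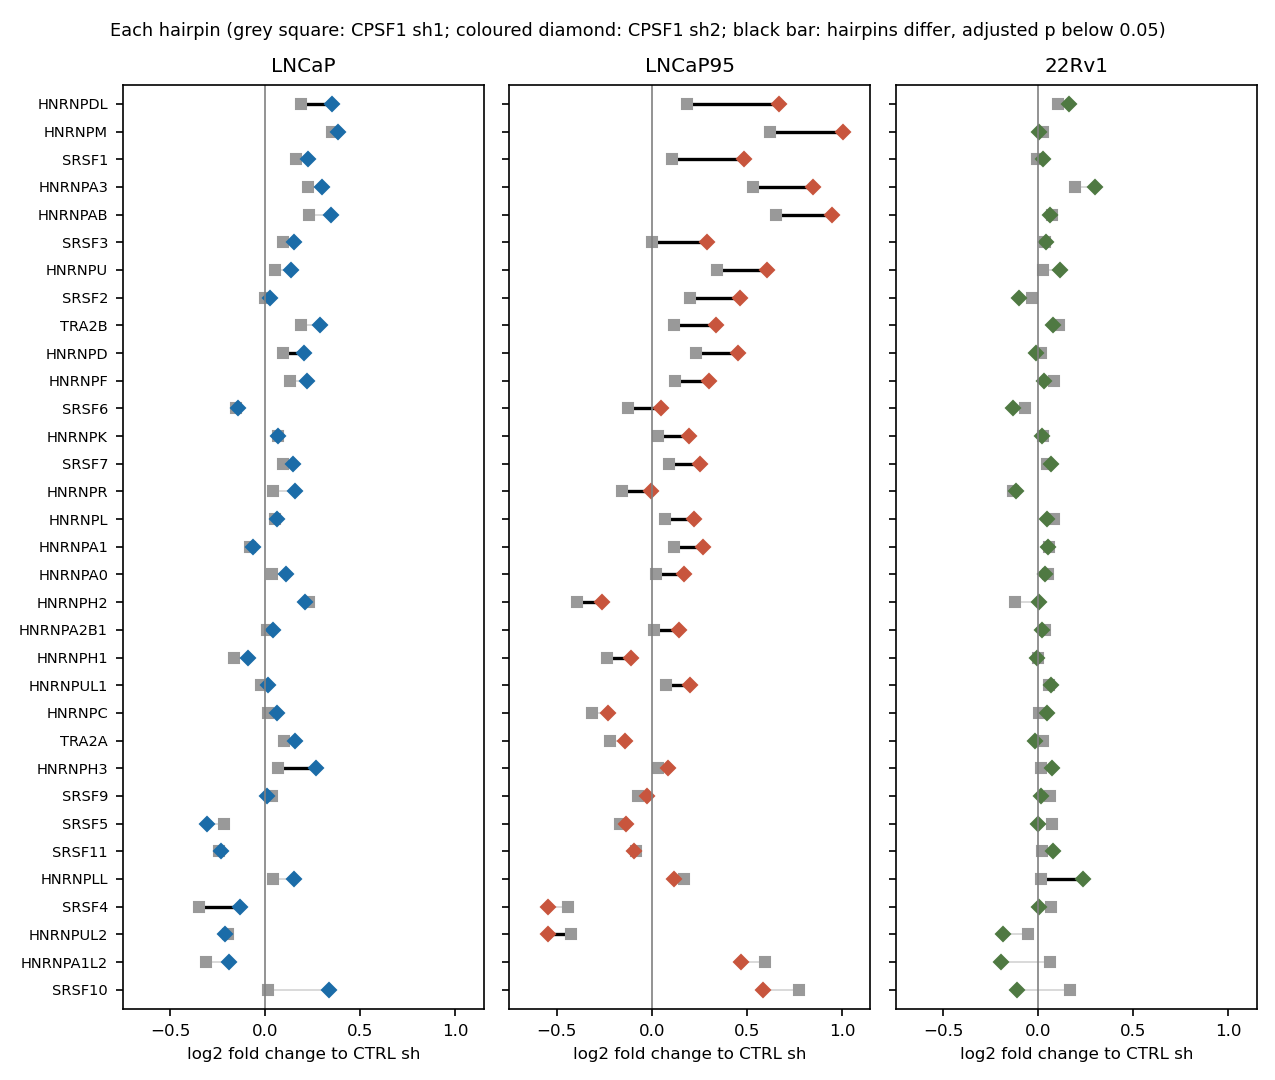
Log2 change of each tested member with CPSF1 sh1 and with CPSF1 sh2 against the same CTRL sh libraries, in each line. A black bar joins the points of a member for which the hairpins differed at an adjusted p under 0.05 in edgeR. In LNCaP95 23 members have a bar and in 22Rv1 HNRNPLL alone.

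Summed over the 23 HNRNP genes, the LNCaP95 libraries stood at 6466 to 6752 CPM with CTRL sh, 6874 to 7296 with sh1 and 7835 to 8048 with sh2. The 3 groups did not overlap. The same sum was 7228 to 7422, 7523 to 7688 and 7733 to 8018 CPM in LNCaP, again without overlap, and 9286 to 9730, 9579 to 9785 and 9699 to 9792 CPM in 22Rv1, where the groups overlapped. The sum over the 11 SRSF and 2 TRA2 genes overlapped between CTRL sh and sh1 in every line. In LNCaP95 it was 2029 to 2268 CPM with CTRL sh, 2081 to 2197 with sh1 and 2332 to 2436 with sh2, so that only sh2 stood apart. In LNCaP it was 2474 to 2553, 2444 to 2512 and 2451 to 2600 CPM, and in 22Rv1 2825 to 2952, 2896 to 2970 and 2849 to 2906. These sums are dominated by the abundant members and are given without a test.

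**Figure D5:**
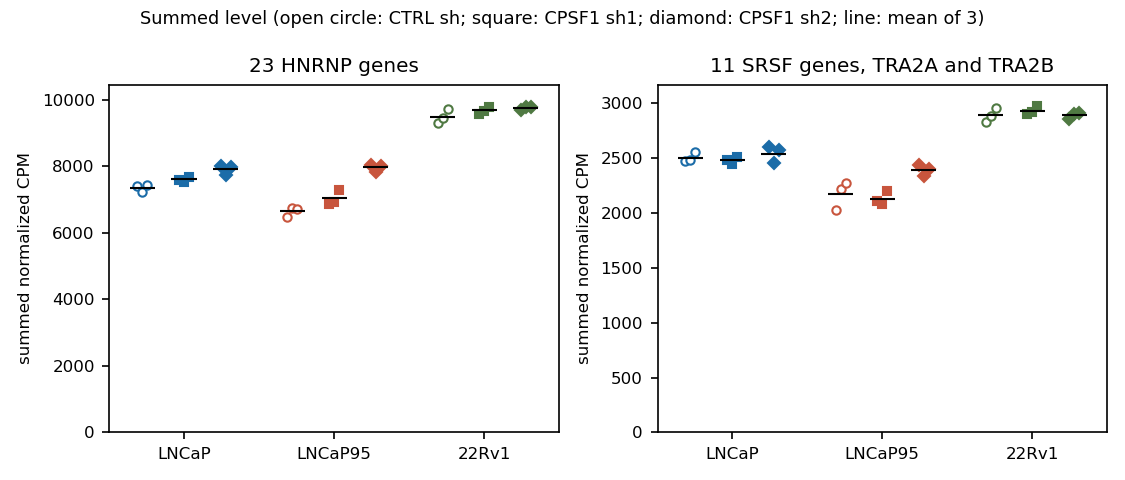
Summed normalized CPM of the 23 HNRNP genes and of the 11 SRSF and 2 TRA2 genes in each library, by line and hairpin. Each point is 1 library. In LNCaP95 the HNRNP sum goes from at most 6752 with CTRL sh to at least 7835 with CPSF1 sh2.

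The factors that modify SR proteins were followed with the members. Among 9 kinases and import factors of SR proteins, 2 rose and 3 fell in LNCaP, 1 rose and 7 fell in LNCaP95, and 1 rose and 1 fell in 22Rv1. SRPK1, the kinase that phosphorylates SR proteins in the cytoplasm, rose in LNCaP95 from 87.5 ± 8.56 to 186 ± 20.7 CPM (SD, n = 3 and 6; log2 1.09, adjusted p = 1.18e-06). CLK1, a nuclear kinase that releases SR proteins from speckles, fell there from 74.3 ± 7.21 to 29.9 ± 3.49 CPM (log2 −1.31, adjusted p = 2.08e-07). The changes of both kinases were larger than those of any member. In LNCaP CLK2 fell from 122 ± 1.59 to 85.0 ± 4.28 CPM (log2 −0.53) and the import receptor TNPO3 rose (log2 0.29). In 22Rv1 CLK2 rose by 0.20 (adjusted p = 0.0358) and CLK3 fell by 0.15 on the log2 scale (adjusted p = 0.0479), calls that were lost under 4 and 13 of the other settings.

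Of 14 SR-related proteins, which carry the same kind of tail, 2 rose and 5 fell in LNCaP, with SON at 0.15 and SRRM1 at −0.33. In LNCaP95 3 rose and 6 fell, with SON at 0.26 and RSRC2 at −0.74, and in 22Rv1 2 rose, SRRM2 by log2 0.19. The SRRM2 call was lost without the second control replicate (adjusted p = 0.0666) and with sh1 alone (adjusted p = 0.06). Of 27 other splicing regulators, 9 rose and 6 fell in LNCaP, with the nuclear matrix protein MATR3 at 0.27 and the muscleblind protein MBNL2 at −0.44. In LNCaP95 7 rose and 8 fell, with QKI, a STAR family RNA-binding protein, at −0.51, and in 22Rv1 2 rose and 3 fell, with PTBP2 at 0.34 and MBNL2 at −0.46. Of 32 core spliceosome genes, 16 rose and 3 fell in LNCaP (PRPF19 at 0.39, SNRPE at −0.33), 15 rose and 7 fell in LNCaP95 (SF3A3 at 0.42, SNRPA1 at −0.35) and 5 rose and 1 fell in 22Rv1 (PRPF3 at 0.27, SNRPD3 at −0.26). These counts stand beside the shares of all genes, which were for LNCaP 31.1% higher and 31% lower, for LNCaP95 33.2% and 33.7%, and for 22Rv1 12.7% and 14.3%, and no list was tested.

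The hexamers at the annotated ends were set beside the calls as a description. Of all 36 members 25 had AATAAA (69.4%), against 56.6% of all genes. In LNCaP all 6 members that fell had AATAAA, and of the 14 that rose 9 had AATAAA, 3 ATTAAA and 2 neither. Of the 13 not called in LNCaP 8 had AATAAA, 2 ATTAAA and 3 neither. In LNCaP95 6 of the 7 that fell had AATAAA and 1 ATTAAA, and of the 17 that rose 11 had AATAAA, 4 ATTAAA and 2 neither. Of the 9 not called in LNCaP95 6 had AATAAA and 3 neither. In 22Rv1 the 1 member that fell and 2 of the 3 that rose had AATAAA, as did 21 of the 30 not called. No link between hexamer and call was tested. HNRNPH1 and HNRNPH2, whose printed windows share 28 of 30 bases, moved in opposite directions in LNCaP and both fell in LNCaP95.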

How the data were processed

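Poly(A)-selected strand-specific RNA-seq libraries of 27 samples were analysed from the gene counts that the authors deposited. Per the labels and the study's methods, paired reads were aligned to GRCh37 with HISAT2 (version 2.1.0) and fragments on exons were counted per gene with reverse strand setting by featureCounts of Subread (version 2.0.3, from the submitters' processing notes). Counts were used as deposited, and the exon length column of the same table served for levels per kilobase. All columns were matched to samples by their titles, and 0 columns were left without a sample.

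Tests were made with edgeR 4.0.16 and limma 3.58.1 in R 4.3.3 (quasi-likelihood F-test in its legacy form, TMM scaling), over all genes above 2 CPM (counts scaled to a common library total) in every library of the fit, with Benjamini-Hochberg adjustment over all genes tested and a threshold of 0.05. Knockdown effects were fitted per line with both hairpins pooled against CTRL sh, hairpins with 3 groups per line, differences between lines over all 27 libraries in 9 groups, and baselines over the CTRL sh libraries. Standard errors are on the log2 scale, SDs are over libraries, and CPM are TMM-normalized. The edgeR fits of knockdown and hairpins per line, and some of the contrasts between lines, were tested on simulated data with known changes. Alternatives were RLE scaling, library size alone, DESeq2 1.42.0, the newer quasi-likelihood form, 2 other filters, each library left out, a replicate block, each hairpin alone, hairpins averaged, a 1.5-fold minimum, and levels without length.

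The members and the lists of other splicing genes and markers were chosen with earlier results of these data known. All members are accounted for. Given with values are, per line or pair of lines, the 3 largest rises and falls without overlap, the 3 largest differences between lines, hairpins and controls past the threshold, members called alike or opposite across lines, the 3 highest per kilobase, those under the filter and, per list and line, the largest rise and fall, of which 1 gene is not reported here. Total counts were 8515624 to 15904518 per library, and intervals for single counts cover counting error only. Biological coefficients of variation were 4.95% in LNCaP, 7.09% in LNCaP95 and 6.08% in 22Rv1.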

Additional observations from a re-analysis of the deposited data

Results flagged for a closer look

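Each tested member was looked at in the 6 knockdown libraries of each line. In 2 of these 100 cases 1 library stood apart from the rest by Dixon's test. The test's nominal rate is about 1 in 20. The cases share libraries and each pools both hairpins, so that this rate is only a rough guide. For SRSF10 the third CPSF1 sh1 replicate of LNCaP95 held 16.7 CPM and the other 5 knockdown libraries 7.64 to 10.8. For HNRNPR the first CPSF1 sh2 replicate of 22Rv1 held 369.5 CPM and the other 5 knockdown libraries 353 to 359.

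The knockdown effect differed between lines, by the interaction test in edgeR, for 20 members between LNCaP95 and LNCaP, for 14 between 22Rv1 and LNCaP and for 20 between 22Rv1 and LNCaP95. In the same order these were 60.6%, 42.4% and 60.6% of 33 members, against 59.7%, 50.3% and 61.6% of all genes tested. The member shares were thus near or below those of all genes. The named log2 differences were 0.80 for HNRNPA1L2, −0.53 for HNRNPH2, 0.53 for HNRNPAB and −0.29 for TRA2A in LNCaP95 minus LNCaP, −0.34 for HNRNPM, 0.31 for SRSF5 and 0.30 for SRSF11 in 22Rv1 minus LNCaP, and −0.81 for HNRNPM, −0.74 for HNRNPAB and −0.60 for HNRNPA1L2 in 22Rv1 minus LNCaP95.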

How the results depend on the processing

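Of 333 counts or shares recomputed under the alternatives 301 stayed within 1.5 times the reported count, or for shares within the spread, and 32 moved. Of 1493 values of single genes 1434 kept their direction and side of the threshold, 51 kept the direction but lost the call, and 8 changed sign, and the cause was not tested. With a 1.5-fold minimum LNCaP95 kept 4 members higher and 0 lower, 22Rv1 1 and 0, and LNCaP 0 and 0. With library size alone 4 members fell in LNCaP95 and 8 differed between hairpins in LNCaP. In 22Rv1 the count of members that fell was 3 with hairpins averaged, 2 with DESeq2 and 2 with filterByExpr, and 0 members differed between hairpins with DESeq2. With sh1 alone 0 members fell in 22Rv1, and with sh2 alone 7 rose and 4 fell. Without division by length the leading 3 members, ranked anew, held 27.1% in LNCaP, 25.1% in LNCaP95 and 27.7% in 22Rv1. They were not the same members in every line. HNRNPU at 586 CPM then stood above SRSF9 at 216 in the LNCaP95 controls. In the 22Rv1 controls HNRNPU at 1028 CPM stood above HNRNPK at 816.

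Leaving out 1 library at a time gave LNCaP 10 to 16 members higher and 5 to 7 lower, LNCaP95 10 to 18 and 5 to 8, and 22Rv1 2 to 4 and 0 to 3. Hairpins then differed for 3 to 6 members in LNCaP, 17 to 24 in LNCaP95 and 0 to 2 in 22Rv1. TRA2A in 22Rv1, at log2 0.0027, went to −0.0046 with filterByExpr, −0.0060 with no filter, −0.016 with sh2 alone, and −0.018 to 0.045 with a library left out, and HNRNPH2 in 22Rv1 went from −0.057 to 0.0075 with sh2 alone. None of these TRA2A and HNRNPH2 values in 22Rv1 passed the test.

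The correlations between samples did not decide whether replicate numbers pair them. Over 27 pairs the deviations of same-numbered samples correlated at −0.24 to 0.28, 7 of them over 0.1. In 12 of the 27 pairs the same number gave the highest correlation. With the replicate block LNCaP had 15 members higher and 7 lower, LNCaP95 16 and 7 and 22Rv1 3 and 1, and hairpins differed for 9, 23 and 1 members. With the replicate block the difference between lines held for 21, 15 and 24 members, in the order LNCaP95 minus LNCaP, 22Rv1 minus LNCaP and 22Rv1 minus LNCaP95. The log2 change of SRSF10 had a standard error of 0.39 in LNCaP and 0.25 in LNCaP95.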

Other observations

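HNRNPCL1, a gene similar to HNRNPC, had no count in the 9 CTRL sh libraries, which allows up to 3 counts in each, and was at 0.166 to 0.45 CPM in all 6 LNCaP knockdown libraries. In LNCaP95 it was found with CPSF1 sh2 only, at 0.279, 0.0823 and 0.273 CPM, and in 22Rv1 in the first and the second CPSF1 sh2 replicate, at 0.271 and 0.104 CPM. These values rest on at most 5 counts in a library, and the gene was not tested. Reads of HNRNPC, which has 9 annotated pseudogenes, may be shared with it, and this was not tested.

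SRSF12 was below the filter in LNCaP, at 0.53 to 0.837 CPM in the controls, 0.45 to 0.682 with CPSF1 sh1 and 0.974 to 1.33 with CPSF1 sh2, so that the sh2 libraries lay above all others. The readthrough gene HNRNPUL2-BSCL2 was at 2.45 to 3.06 CPM in the LNCaP95 controls and 1.18 to 2.60 with knockdown, next to HNRNPUL2 itself at 102 to 108 and 72.0 to 79.9 CPM.

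HNRNPD and HNRNPDL lie 48.1 kb apart on the same strand of chromosome 4, and HNRNPLL and SRSF7 140 kb apart on the same strand of chromosome 2. HNRNPD and HNRNPDL both rose in LNCaP and in LNCaP95, and both were higher with sh2 than with sh1 in LNCaP. HNRNPLL and SRSF7 both rose in LNCaP95, and in LNCaP SRSF7 alone passed the test. The exons of SRSF1 share 10.2% of their bases with an unnamed neighbouring transcript on the same strand that held 8 to 196 counts per library.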
